A study of Mus musculus with 12 samples.

Results

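CD25 High regulatory T cells (Tregs) from mice with and without Atg5 in CD11c-expressing cells were compared across all genes with enough reads to test. Tregs hold back other lymphocytes and depend on the transcription factor Foxp3. CD25, encoded by Il2ra, is the alpha chain of the interleukin-2 receptor, which lets them respond to low amounts of that cytokine. Dendritic cells are the main CD11c-expressing cells; they present antigen to T cells and maintain Tregs in the spleen and lymph nodes. Atg5 is needed to build autophagosomes, the vesicles with which a cell digests its own contents. The genotype thus targets autophagy in the partner cell, where its loss was not measured here, and the RNA was read in the T cell.

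The members were the 6 CD25 High libraries of 12 in the series, taken by their sample labels: 3 of the group called WT High and 3 of the group called TG High. Both groups were C57BL/6 and carried Atg5 flox/flox. WT mice lacked the CD11c Cre transgene (Cre -/-), and TG mice were Cre +/-. The CD11c promoter drives Cre, so the gene is targeted in any cell that expresses CD11c, and the T cells themselves were not the target. Spleens and 3 kinds of lymph node (inguinal, brachial, cervical) gave the cells, which were sorted for CD4, a further surface marker and high CD25; no Foxp3 stain is named. Ages are not given. The same 2 genotypes sorted for low CD25 (WT Low and TG Low, 3 libraries each) served only to set the CD25 High difference beside another gate. The labels do not say that replicates were separate animals. The p-values measure the spread left between these libraries once the replicate number is taken out, which may be technical.

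Total counts were 18161830, 23942479 and 22723332 in WT High replicates 1 to 3 and 18697248, 6767828 and 21382878 in TG High, and the shallow library was TG High replicate 2. From 12370 to 13969 genes were detected per CD25 High library. No library repeated another: a chi-square of replicate against replicate, divided by its degrees of freedom, gave 20.67 to 37.79. Libraries with the same replicate number varied together: their deviations from the group means correlated at 0.768, 0.415 and 0.675 in the WT High and TG High pairs numbered 1, 2 and 3, and at -0.631 to 0.14 between differently numbered ones. Deviations from the mean of 3 libraries sum to 0, so values below 0 between differently numbered libraries are partly built in. The comparison is within numbered pairs because its rule set this, with earlier results of these data known. Levels below are counts scaled to library size with edgeR's TMM factors and given as CPM, and differences are fitted log2 TG minus WT with their standard errors (SE). The Y-linked gene Eif2s3y was at 33.8, 102 and 57.4 CPM in WT High and 35.5, 102 and 119 CPM in TG High, so pair 3 was unequal for it; its part in the results was not tested.

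The gate markers matched the label in both genotypes. Il2ra stood at 1189, 1072 and 1309 CPM in WT High replicates 1 to 3 and at 1147, 1141 and 1261 CPM in TG High. The genotype difference was -0.01 (SE 0.09, 95% interval -0.19 to 0.18, adjusted p = 0.999). Foxp3 stood at 1454, 1662 and 1532 CPM in WT High and at 1524, 1412 and 1639 CPM in TG High, a difference of -0.02 (SE 0.08, interval -0.19 to 0.15, adjusted p = 0.999). Levels of the WT and TG libraries overlapped for both genes, and the intervals are narrower than 1.5-fold either way. Itgax, which encodes CD11c, was close to absent: 0 to 0.0551 CPM of unscaled totals in the 6 libraries, too few to test. Atg5 was read in every library, at 32.2, 32.0 and 35.7 CPM in WT High and 33.9, 40.4 and 41.6 CPM in TG High. Its difference was 0.21 (SE 0.09, unadjusted p = 0.0427, adjusted p = 0.999), and since the sorted cells were not the target this level is no check of the genotype labels.

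No gene passed the adjusted threshold. With edgeR's quasi-likelihood test and the replicate number as a block, 0 of 11766 genes had a Benjamini-Hochberg adjusted p under 0.05 (0.0%), and the smallest adjusted p was 0.34, for Cd22. At an unadjusted p under 0.05 there were 418 genes (3.55%), 246 higher in TG (2.09%) and 172 lower (1.46%). The TG and WT levels did not overlap for 233 genes higher in TG (1.98%) and 269 lower (2.29%). TG was higher in 3 of 3 pairs for 1478 genes (12.6%) and lower in 3 of 3 for 1268 (10.8%). Other tests of the same counts called few genes: DESeq2 called 7 (0.0595%) and limma voom 2 (0.017%), the latter being Cd22 and Il9r, both among the 7.

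What the data could show was set by the 95% intervals. They pool the spread of all 12 libraries and may be too narrow if High and Low libraries share a source. The SE of a log2 difference had a median of 0.118 over all tested genes. For the 8513 genes averaging 10 CPM or more it was 0.101, and the median absolute difference was 0.0672. The 95% interval lay inside 1.5-fold either way for 8039 of those genes (94.4%) and inside 2-fold for 8396 (98.6%). A shift of 2-fold or more is thus outside the interval of nearly all well-read genes. The pairs differed in spread: the SD of the log2 difference over these 8513 genes was 0.222 in pair 1, 0.286 in pair 2, which holds the shallow library, and 0.181 in pair 3.

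**Figure D1:**
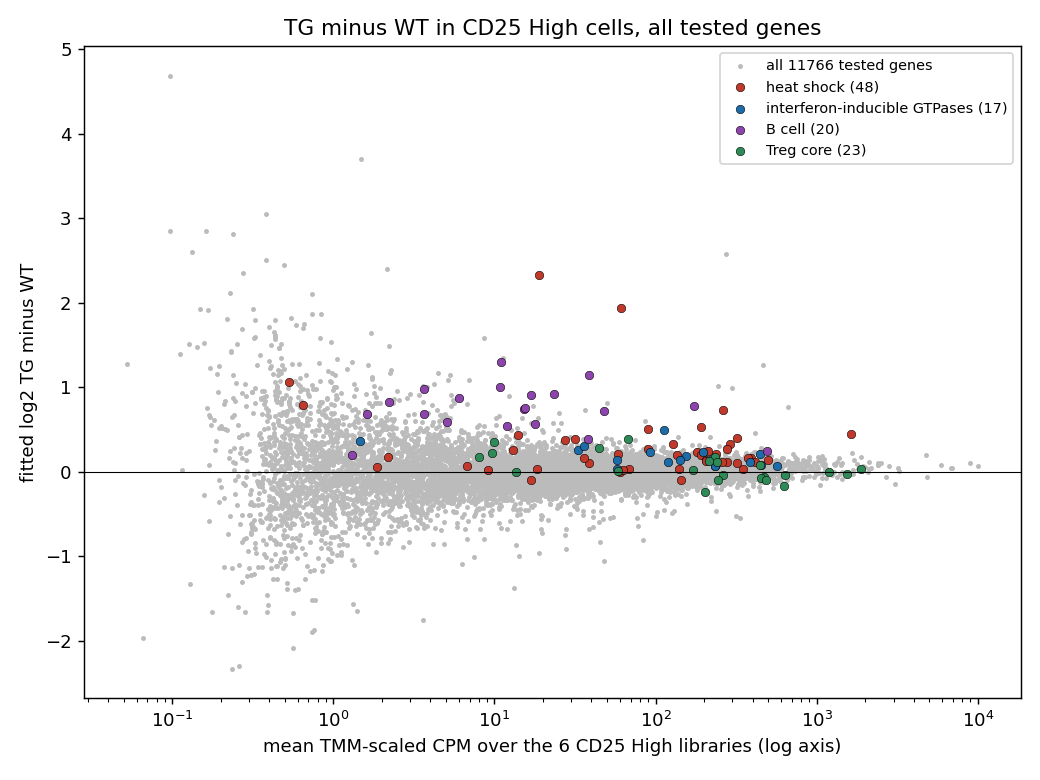
Fitted log2 TG minus WT in CD25 High (vertical axis) against the mean level over the 6 CD25 High libraries in TMM-scaled CPM (log axis), 1 point per tested gene (11766), with 4 gene lists coloured. The 20 B cell genes and 45 of 48 heat shock genes lie above 0, and the 23 Treg core genes lie on both sides of it (13 above).

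Heat shock genes were higher in TG together, though none passed the adjusted threshold. The proteins they encode are chaperones that keep other proteins folded, and many of the genes are induced by the transcription factor HSF1 when proteins unfold. Of the 51 listed, 48 were tested; 45 of the 48 were higher in TG, with a median of 0.17 against 0.01 for all genes, and 11 had an unadjusted p under 0.05, all of them higher (background 2.09%). The list median was 0.167 in pair 1, 0.356 in pair 2 and 0.0228 in pair 3. Without TG High replicate 2, the shallow library, it was 0.0836 with 41 of 48 higher, and without all libraries numbered 2 it was 0.0777 with 35 of 48. The 11 became 17 without TG High replicate 3, and 8 without WT High replicate 2 or TG High replicate 2. Without all libraries numbered 1 there were 7 higher and 1 lower, and without those numbered 2 there were 7 higher. The promoters of 4 members are printed as examples, out of 5 genes at unadjusted p under 0.05 whose windows carry letters that HSF1 recognises; Hspe1 is the other. Each is the 250 bases before the start of transcription, 5′ to 3′ on the gene's strand, from RefSeq on GRCm38.p6. The motif is in capitals: an inverted repeat of GAA with a 2-base gap, searched as GAANNTTC or TTCNNGAA.
Hspa1a: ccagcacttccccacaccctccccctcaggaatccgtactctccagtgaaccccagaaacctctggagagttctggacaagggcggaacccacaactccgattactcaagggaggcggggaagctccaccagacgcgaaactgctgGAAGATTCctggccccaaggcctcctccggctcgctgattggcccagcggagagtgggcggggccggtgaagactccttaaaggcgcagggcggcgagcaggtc
Hspa1b: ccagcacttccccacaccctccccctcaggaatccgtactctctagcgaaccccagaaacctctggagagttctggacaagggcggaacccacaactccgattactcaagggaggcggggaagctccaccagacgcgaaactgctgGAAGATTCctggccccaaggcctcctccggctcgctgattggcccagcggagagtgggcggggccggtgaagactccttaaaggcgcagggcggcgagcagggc
Hsph1: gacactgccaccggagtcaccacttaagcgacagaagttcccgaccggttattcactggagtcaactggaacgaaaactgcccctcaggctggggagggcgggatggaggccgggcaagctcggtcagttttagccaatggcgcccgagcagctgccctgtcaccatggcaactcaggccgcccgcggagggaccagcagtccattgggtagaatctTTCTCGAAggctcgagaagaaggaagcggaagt
Fkbp4: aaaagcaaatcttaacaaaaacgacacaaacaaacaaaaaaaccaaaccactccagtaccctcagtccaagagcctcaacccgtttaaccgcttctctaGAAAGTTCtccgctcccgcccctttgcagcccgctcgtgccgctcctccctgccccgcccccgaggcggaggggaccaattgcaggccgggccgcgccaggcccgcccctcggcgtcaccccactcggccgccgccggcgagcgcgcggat
They lie at chr17:34972157-34972406, chr17:34959239-34959488, chr5:149636337-149636586 and chr6:128438657-128438906, each on the minus strand. The Hspa1a and Hspa1b windows are identical at 247 of 250 bases, and these genes are near-identical copies whose reads the counting may split. Each motif is its own reverse complement, so a search of either strand finds the same matches; the motifs may overlap, and a promoter with either was counted once. At least 1 match was found in 4218 of 32851 RefSeq promoters of this length (12.8%), in 1202 of 11757 promoters of tested genes (10.2%) and in 15 of 52 promoters of tested heat shock genes (28.8%), which stood for 40 of the 48 genes. Among the 11 heat shock genes at unadjusted p under 0.05, 9 had a promoter entry and 5 of the 9 held the motif (the 4 above and Hspe1). It was held by 13 of 40 tested heat shock genes with an entry (32.5%) and 1120 of 9197 tested genes with one (12.2%). The 9 are among the 40 and were picked by p in these same data, and the near-identical Hspa1a and Hspa1b count as 2. These shares are therefore no test of a link between motif and genotype difference, and the part of HSF1 was not tested. Stip1, Ahsa1, Ptges3 and Cct3 held none. A match describes letters in this window, not binding.

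Among the chaperones themselves, the inducible Hsp70 genes showed the largest differences of the list. Hspa1a, on chromosome 17, was at 6.11, 3.08 and 8.67 CPM in WT High and at 65.8, 12.3 and 18.1 CPM in TG High. Every TG library was above every WT library, and TG replicate 1 was far above the rest. The difference was 2.33 (SE 0.70, unadjusted p = 0.0144, adjusted p = 0.999). Hspa1b was at 22.9, 12.6 and 44.5 CPM in WT High and at 148, 62.3 and 74.1 CPM in TG High. Its groups did not overlap either, with a difference of 1.94 (SE 0.64, unadjusted p = 0.0214, adjusted p = 0.999). Hspa8, the constitutive Hsp70, gave 213, 327 and 227 CPM in WT High against 313, 660 and 175 CPM in TG High: higher in pairs 1 and 2 and lower in pair 3, so its difference of 0.41 (SE 0.30) is within the spread of the pairs.

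Hsp90 and its partners follow. Hsp90ab1 (chromosome 17, 45567775 to 45573271), the constitutive cytosolic Hsp90, was at 1284, 1651 and 1122 CPM in WT High and at 1617, 2850 and 1321 CPM in TG High. TG was higher in each pair although the groups overlapped, because the pairs stood at different levels. The difference was 0.45 (SE 0.09, unadjusted p = 0.000148, adjusted p = 0.377) and ranged from 0.279 to 0.547 over the alternatives, the lowest without all libraries numbered 2. Hsph1, an Hsp110 that exchanges nucleotide on Hsp70, was at 102, 260 and 74.9 CPM in WT High against 157, 478 and 77.6 CPM in TG High, so pair 3 hardly differed (difference 0.53, SE 0.12, adjusted p = 0.607). Co-chaperones that hand clients to Hsp90 were also higher in each pair. Stip1, which joins Hsp70 to Hsp90, was at 198, 395 and 162 CPM in WT High and 269, 532 and 175 CPM in TG High (0.33, SE 0.08, adjusted p = 0.921). Fkbp4, an Hsp90-bound immunophilin, was at 219, 329 and 199 CPM in WT High and 268, 422 and 220 CPM in TG High (0.27, SE 0.08, adjusted p = 0.999). Hspe1, the lid of the mitochondrial chaperonin, was at 30.7, 27.2 and 22.6 CPM in WT High and 36.1, 47.5 and 25.0 CPM in TG High (0.39, SE 0.13, unadjusted p = 0.00822). The Hsp40 genes Dnajb1 (0.73, SE 0.49) and Dnaja1 (0.32, SE 0.38), partners of Hsp70, had pair 3 in the other direction. Hsf1 itself was at 121, 185 and 146 CPM in WT High and 143, 127 and 143 CPM in TG High (-0.10, SE 0.11).

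**Figure D2:**
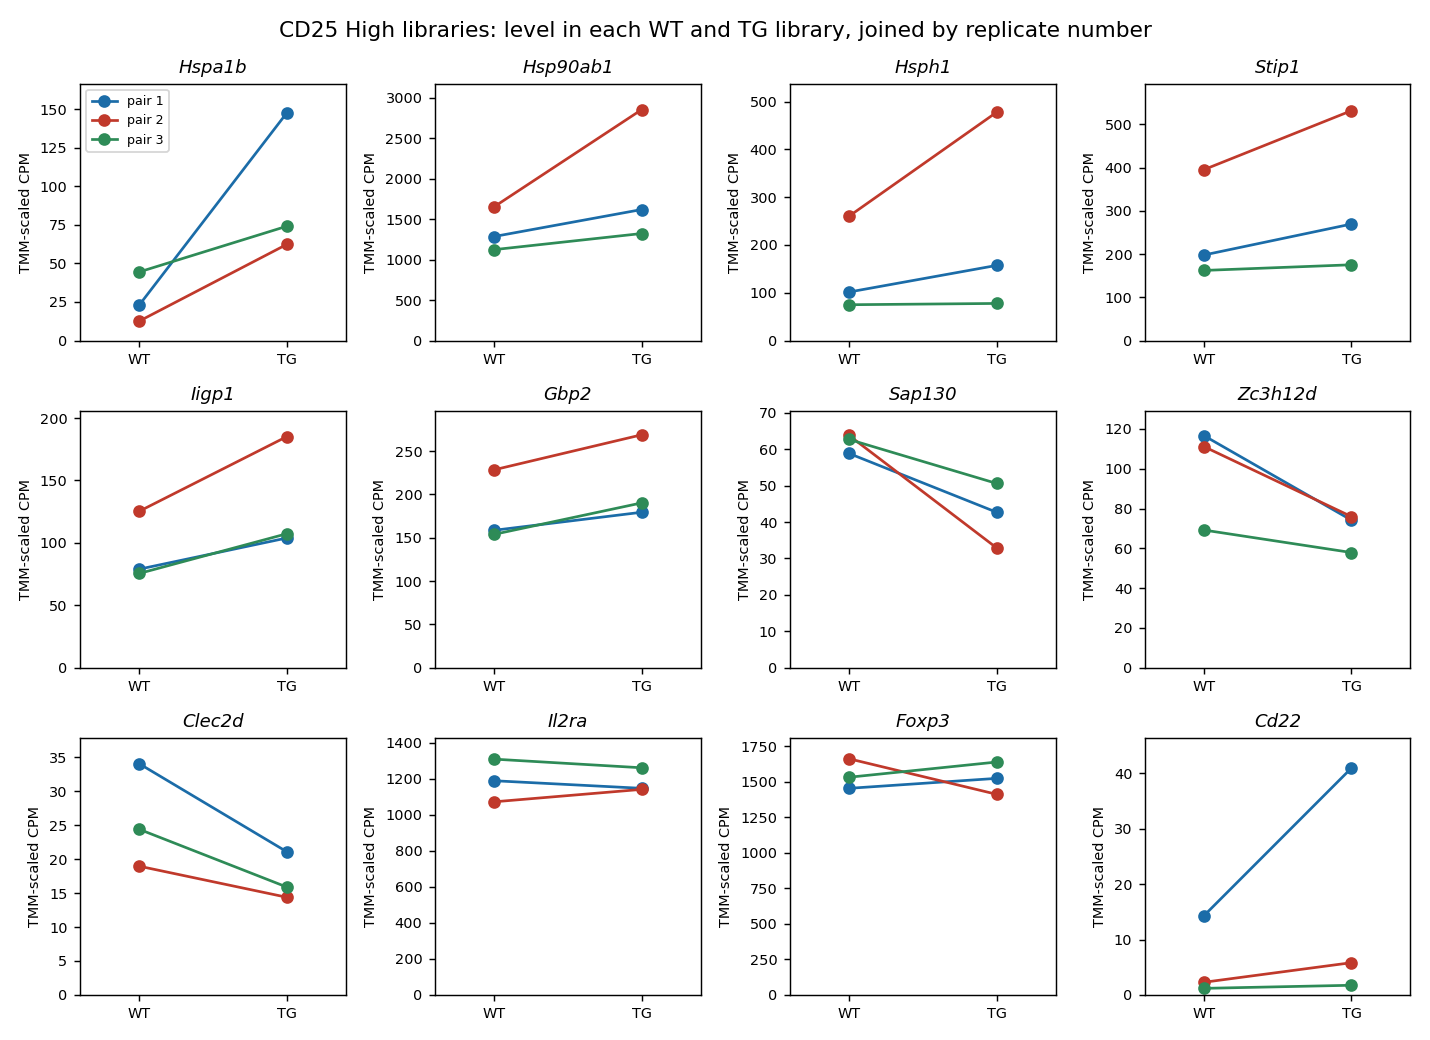
TMM-scaled CPM in each CD25 High library for 12 genes, WT left and TG right, joined by replicate number (colours are pairs 1, 2 and 3; every axis starts at 0). In Hsp90ab1, Stip1, Iigp1 and Gbp2 the TG point is above the WT point of each pair although the groups overlap. In Sap130 every TG point is below every WT point. The lines of Il2ra and Foxp3 rise in some pairs and fall in others.

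The unfolded protein response list holds chaperones of the endoplasmic reticulum and other genes of that response. It had a median of 0.13 over 29 tested genes, with 23 higher. At unadjusted p under 0.05 there were 5, all higher (background 2.09%). These became 3 without WT High replicate 1, 2 without all libraries numbered 1 and 6 without TG High replicate 1. The pairs were alike, with medians of 0.113, 0.135 and 0.0937. Without TG High replicate 2 the median was 0.0826. Hspa5, the main Hsp70 of this compartment, was at 639, 646 and 705 CPM in WT High and at 795, 710 and 802 CPM in TG High, with no overlap (0.21, SE 0.08, unadjusted p = 0.0158, adjusted p = 0.999). Hsp90b1, its Hsp90, was at 454, 476 and 366 CPM in WT High and 541, 601 and 402 CPM in TG High (0.24, SE 0.07, unadjusted p = 0.00382). The lectin chaperone Canx gave 0.21 (SE 0.08). The stress transcription factor Xbp1 was at -0.11 (SE 0.09).

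Interferon-inducible GTPases, which attack membranes around intracellular microbes, were higher in TG for 17 of 17 tested members (18 listed). The median was 0.15, and the pair medians were 0.142, 0.188 and 0.163. TG was above WT in 3 of 3 pairs for 13 of 17, against 12.6% of all genes, and 6 had an unadjusted p under 0.05 (background 2.09%). The 6 became 3 without WT High replicate 1, and likewise without WT High replicate 3. Without all libraries numbered 3 there were 2, and without those numbered 2 there were 6. Leaving out any CD25 High library kept the median between 0.131 and 0.198. Iigp1, an immunity-related GTPase on chromosome 18, was at 78.9, 125 and 75.5 CPM in WT High and 104, 185 and 107 CPM in TG High. The difference was 0.49 (SE 0.11, unadjusted p = 0.000337, adjusted p = 0.501). Gbp2, a guanylate-binding protein, was at 159, 228 and 154 CPM in WT High and 179, 269 and 190 CPM in TG High (0.24, SE 0.08, adjusted p = 0.999). Gbp6 was at 78.3, 99.1 and 78.9 CPM in WT High and 99.2, 102 and 99.3 CPM in TG High, without overlap (0.24, SE 0.08). Igtp, also called Irgm3, was higher in each pair (0.21, SE 0.08, unadjusted p = 0.0132). These paralogues share sequence, and reads of near copies such as Tgtp1 may be divided among them.

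Other interferon-stimulated genes were less even. Of 49 tested, 41 were higher, with a median of 0.0975 and 3 at unadjusted p under 0.05, all higher (background 2.09%). With WT High replicate 3 left out there were 0, and with TG High replicate 3 left out 1 higher and 1 lower; dropping replicate 2 of WT High gave 7, and of TG High 8. The pair medians were 0.0996, -0.103 and 0.312, and the list median was 0.0132 with 25 of 49 higher once TG High replicate 3 was left out. Leaving out WT High replicate 3 gave 0.0428, WT High replicate 1 0.0634, WT High replicate 2 0.162 and TG High replicate 2 0.154. Without all libraries numbered 3 it was -0.016, with 23 of 49 higher.

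**Figure D3:**
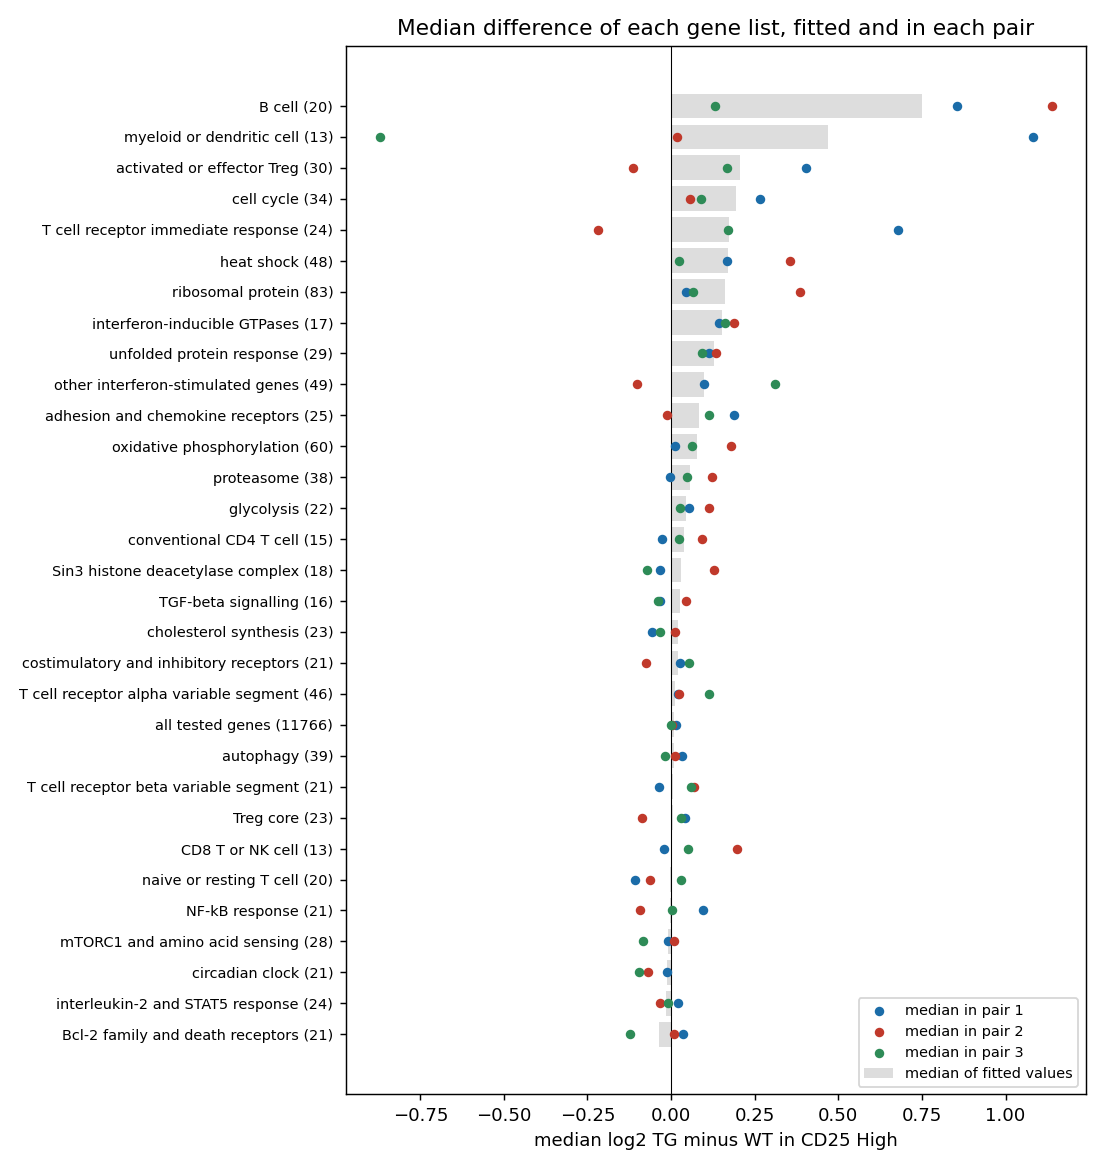
Median log2 TG minus WT of each gene list with at least 10 tested members (number in brackets): grey bars are the median of the fitted values, points the median within pairs 1, 2 and 3. The GTPases and the unfolded protein response list have their 3 points close together (0.142 to 0.188 and 0.0937 to 0.135), while the T cell receptor response list spans -0.217 to 0.677.

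Genes that define Tregs did not share a direction. The Treg core list, 23 genes that mark the lineage, had a median of 0.005 with 13 higher (-0.0215 to 0.0623 with any CD25 High library left out). The 95% interval of 18 of the 23 lay inside 1.5-fold, against 72.3% of all tested genes and 94.4% of those averaging 10 CPM or more. Ctla4, an inhibitory receptor Tregs use on antigen-presenting cells, was at 298, 214 and 282 CPM in WT High and 291, 202 and 285 CPM in TG High (-0.04, SE 0.10). Ikzf2, which encodes the transcription factor Helios, was at 222, 226 and 204 CPM in WT High and 199, 169 and 193 CPM in TG High, lower without overlap but with a wide SE (-0.23, SE 0.23). Itgae, the alpha E integrin, was at 95.3, 42.5 and 38.4 CPM in WT High and 121, 60.6 and 48.3 CPM in TG High, higher in each pair (0.39, SE 0.14, unadjusted p = 0.0146, adjusted p = 0.999). Entpd1, which encodes the ectoenzyme CD39, was at 39.1, 39.5 and 42.0 CPM in WT High and 40.3, 54.8 and 53.0 CPM in TG High (0.28, SE 0.11, unadjusted p = 0.0187, adjusted p = 0.999). Icos, a costimulatory receptor, was at 0.13 (SE 0.17). The list of targets of interleukin-2 and STAT5, the signal that CD25 feeds, had a median of -0.01 with 10 of 24 higher and 0 at unadjusted p under 0.05; Cish, a feedback inhibitor of that signal, was at -0.18 (SE 0.10). The NF-kB list had a median of -0.003, with all 21 intervals inside 1.5-fold, beside the same shares of 72.3% and 94.4%.

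Genes of activated Tregs, of recent T cell receptor contact and of division were mostly higher in TG, with the largest pair medians in pair 1. The effector Treg list had 27 of 30 higher with a median of 0.21, the pair medians being 0.403, -0.115 and 0.166. Leaving out WT High replicate 1 gave 0.0594, TG High replicate 1 0.135, TG High replicate 3 0.0999 and TG High replicate 2 0.336. Lgals1, a galectin abundant in effector Tregs, was at 231, 137 and 124 CPM in WT High and 317, 178 and 136 CPM in TG High (0.32, SE 0.09, unadjusted p = 0.00303, adjusted p = 0.999). The T cell receptor response list had pair medians of 0.677, -0.217 and 0.170. Its median of 0.17 was 0.0305 with TG High replicate 1 left out, 0.0985 with WT High replicate 1, 0.274 with WT High replicate 3 and 0.337 with TG High replicate 2 left out. Fos, an AP-1 subunit induced within minutes, was at 20.7, 16.3 and 306 CPM in WT High and 810, 12.4 and 474 CPM in TG High, so libraries of the same group differed more than the genotypes (2.58, SE 1.29). Gem, a small GTPase induced on activation, was at 6.81, 5.23 and 13.3 CPM in WT High and 23.8, 5.51 and 19.7 CPM in TG High (0.90, SE 0.24, unadjusted p = 0.00169, adjusted p = 0.999). The cell cycle list had 32 of 34 higher and a median of 0.20, which was 0.0085 with 17 of 34 higher without TG High replicate 1. Ccna2, the cyclin of S and G2 phase, stood at 33.8, 2.66 and 0.697 CPM in WT High and 45.5, 4.44 and 1.36 CPM in TG High (0.63, SE 0.19), so replicate 1 of both genotypes held most of its reads. Of resting T cell genes, 10 of 20 were higher. Bach2, a repressor that keeps T cells resting, was lower in each pair, at 142, 189 and 181 CPM in WT High and 130, 148 and 144 CPM in TG High (-0.27, SE 0.10, unadjusted p = 0.0143, adjusted p = 0.999).

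Ribosomal protein genes were higher for 75 of 83, with a median of 0.16, but the pair medians were 0.0439, 0.385 and 0.0653, and without WT High replicate 2 the median was 0.0321 with 54 of 83 higher. Oxidative phosphorylation genes had a median of 0.0764 with 54 of 60 higher, and 0.0365 without TG High replicate 2. Autophagy genes, the pathway targeted in the partner cell, had a median of 0.007 with 20 of 39 higher. Uvrag, which acts in autophagosome maturation, was at 80.5, 79.6 and 80.9 CPM in WT High and 89.2, 90.2 and 89.0 CPM in TG High, a small step without overlap (0.16, SE 0.07, unadjusted p = 0.0527). Circadian clock genes had a median of -0.01 with 9 of 21 higher; Ciart, a clock repressor, was higher and Dbp, a clock output factor, lower at unadjusted p under 0.05.

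Among genes lower in TG, Sap130, a subunit of the Sin3 histone deacetylase complex, had the smallest p (chromosome 18, 31634371 to 31723061). It was at 58.8, 63.8 and 62.7 CPM in WT High and 42.7, 32.9 and 50.6 CPM in TG High, so every TG library was below every WT library. The difference was -0.55 (SE 0.11, unadjusted p = 0.000141, adjusted p = 0.377). Suds3, another subunit of that complex, was higher without overlap, at 100, 94.2 and 104 CPM in WT High and 123, 131 and 112 CPM in TG High (0.29, SE 0.09, unadjusted p = 0.00444, adjusted p = 0.999), and the other 16 tested subunits had an unadjusted p of 0.05 or more. Zc3h12d, a regnase-family RNase that degrades cytokine messages, was at 117, 111 and 69.2 CPM in WT High and 74.1, 75.9 and 57.9 CPM in TG High (-0.49, SE 0.11, adjusted p = 0.607). Clec2d, a lectin-like ligand of an NK cell receptor, was at 34.1, 19.0 and 24.4 CPM in WT High and 21.1, 14.4 and 15.9 CPM in TG High (-0.57, SE 0.15, adjusted p = 0.999). Dcaf17, a substrate receptor of a ubiquitin ligase, was at 87.8, 89.8 and 77.1 CPM in WT High and 60.8, 70.4 and 68.3 CPM in TG High, without overlap (-0.35, SE 0.09, adjusted p = 0.921). The other genes of the 10 smallest p that were lower were Ubn2, Ctse, Slc35d1, Anp32a, Bcl9 and Kat2b, between -0.53 and -0.30, each lower in 3 of 3 pairs as the rule for naming required.

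Markers of B cells were read in these sorted CD4 libraries, and none passed the adjusted threshold for genotype. In bulk RNA, fewer cells of a type and less RNA per cell cannot be told apart. TG was higher for 20 of 20 tested B cell genes (22 listed), with a median of 0.75, and 11 had an unadjusted p under 0.05 (background 2.09%). The pair medians were 0.856, 1.14 and 0.130, with 14 of 20 higher in pair 3, and the 11 became 3 without TG High replicate 1 and 7 without WT High replicate 1. Summed over the list and without TMM scaling, they took 1310, 594 and 414 CPM in WT High and 2100, 697 and 508 CPM in TG High, so each pair was higher in TG, and replicate 1 stood highest in both genotypes. None of the 20 genes was at 0 in any of the 6 libraries. Cd22, a B cell lectin on chromosome 7 (30865402 to 30880342), had the smallest p of all tested genes. It was at 14.3, 2.28 and 1.18 CPM in WT High and at 41.0, 5.82 and 1.74 CPM in TG High (1.30, SE 0.23, unadjusted p = 3.57e-05, adjusted p = 0.34). Il9r, the interleukin-9 receptor, chosen after its values were seen, followed the same order of libraries, at 8.57, 2.91 and 0.872 CPM in WT High and 23.1, 4.59 and 1.45 CPM in TG High (1.09, SE 0.20, adjusted p = 0.34). The myeloid or dendritic list summed to 213, 207 and 183 unscaled CPM in WT High and 278, 222 and 201 in TG High, with between 2 and 13 of its 24 genes at 0 in a library. Bst2, which is also on the interferon list, made up much of that sum, at 97.2, 121 and 88.7 TMM-scaled CPM in WT High and 126, 122 and 114 in TG High. Csf1r was at most 1.60 and C1qb at most 0.214 CPM of unscaled totals, while Lyz2, a lysozyme of myeloid cells, was at 1.54, 0.334 and 0.66 in WT High and 10.8, 0.296 and 0.0935 in TG High, so TG replicate 1 stood apart. The CD8 T or NK list was level, at 129, 83.4 and 76.2 against 132, 83.9 and 76.7. The gamma delta T cell list summed to 25.7, 20.0 and 24.8 unscaled CPM in WT High and 37.3, 32.1 and 25.9 in TG High. Of 12 listed genes 6 were tested, 5 of them higher with a median of 0.44, and 2 were higher at unadjusted p under 0.05 (background 2.09%). That count was 0 without the replicate block, 1 without all libraries numbered 1 and 3 without WT High replicate 3. The plasma cell list gave 213 to 272 in WT High and 193 to 286 in TG High, the neutrophil list 0.088 to 0.292 and 0.148 to 2.03, and the erythroid or platelet list 1.67 to 2.48 and 1.26 to 2.66. The part of other cells in the differences of the effector, cell cycle and interferon lists was not tested.

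**Figure D4:**
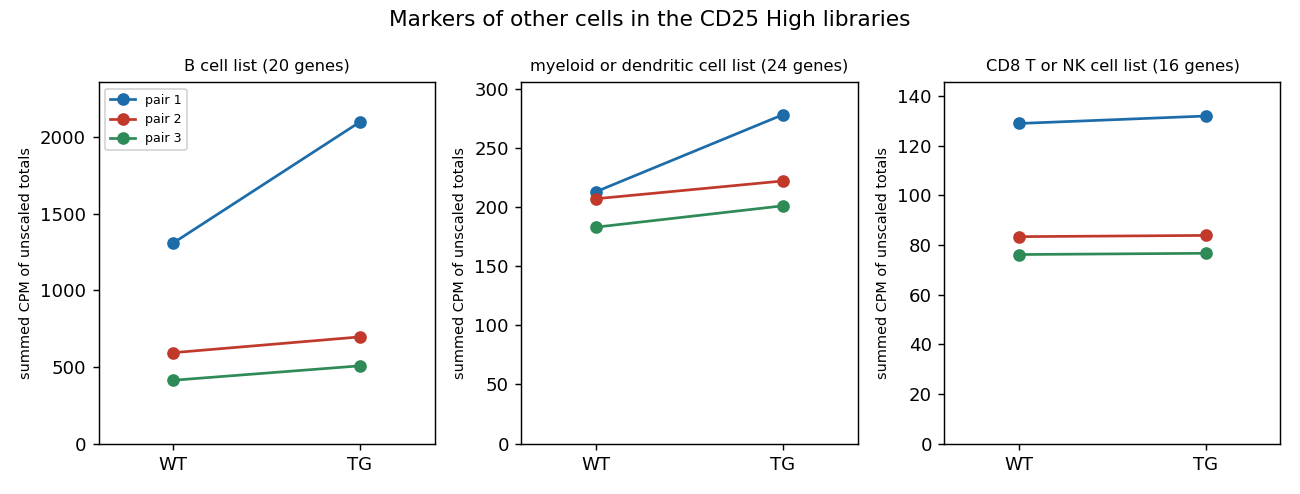
Summed level, in CPM of unscaled totals, of 3 marker lists of other cells in each CD25 High library, WT left and TG right, joined by replicate number. The B cell sum is higher in TG in each pair (1310 to 2100, 594 to 697 and 414 to 508), and the CD8 T or NK sum is level.

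The genotype difference in CD25 High was set beside that in CD25 Low, which uses other libraries of the same replicate numbers. In CD25 Low edgeR called 0 of 11766 genes (0.0%), with 382 at unadjusted p under 0.05 (3.25%); DESeq2 called 2 there and limma voom 0. The test of the difference between the gates also called 0 (0.0%), with 118 at unadjusted p under 0.05 (1.0%), and DESeq2 and limma voom called 0 there too. Of the 246 genes higher in TG High at unadjusted p under 0.05, 205 (83.3%) were higher in TG Low as well, and 65 (26.4%) were at unadjusted p under 0.05 in the same direction. Of the 172 lower ones, 120 (69.8%) were also lower in TG Low, and 10 (5.81%) were at unadjusted p under 0.05. Over all tested genes, 62.7% had the same sign in both gates. Same-numbered libraries of the gates vary together, so these shares describe paired libraries and are not independent repeats.

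The heat shock median was 0.17 in High and 0.17 in Low, and Hsp90ab1 gave 0.47 in Low (SE 0.09, unadjusted p = 8.11e-05) against its 0.45 in High; the difference of effects was -0.03 (SE 0.13). Hspa1a gave 2.33 in High and 1.53 in Low, a difference of effects of 0.80 (SE 0.98). The unfolded protein response median was 0.13 in High and 0.0669 in Low. The GTPase median was 0.15 in High and 0.19 in Low. The Treg core list gave 0.005 in High against 0.13 in Low, where 22 of 23 were higher; the difference of effects was below 0 for 22 of 23 genes, and none of the 23 was at unadjusted p under 0.05. Sap130 had the smallest p of the difference of effects: it was at 59.9, 56.5 and 71.3 CPM in WT Low and 68.5, 67.9 and 66.9 CPM in TG Low (0.12, SE 0.11), and the gates differed by -0.67 (SE 0.15, unadjusted p = 0.000489, adjusted p = 1.0). Clec2d followed with -0.80 (SE 0.20, adjusted p = 1.0), being 0.23 (SE 0.14) in Low. Helb, a DNA helicase, gave -0.55, and Emd, a protein of the inner nuclear membrane, also gave -0.55. In the other direction were Dip2a (0.86), Zmym4 (0.41), Zcchc24 (0.54), Abhd17b (0.43) and Stxbp5 (0.34), none with an adjusted p under the threshold.

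**Figure D5:**
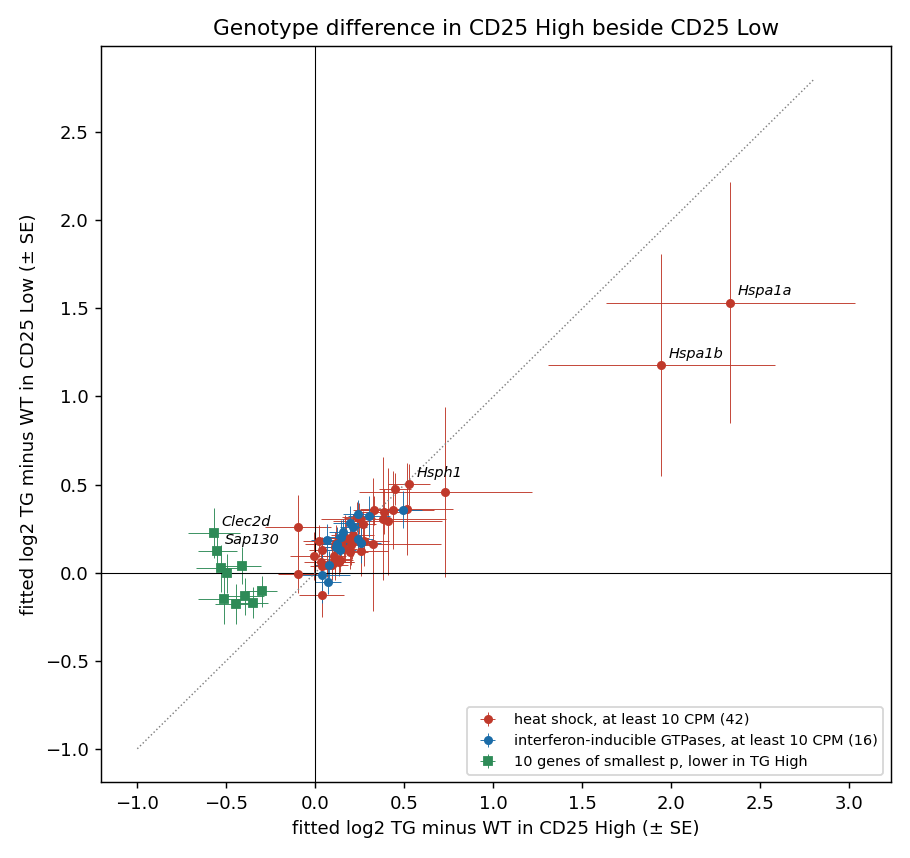
Fitted log2 TG minus WT in CD25 High (horizontal) against CD25 Low (vertical), with SE bars, for heat shock genes and GTPases with at least 10 CPM in the higher CD25 High group and for the 10 lower genes of smallest p; the dotted line marks equal values. Hspa1a (2.33 in High, 1.53 in Low) and Hspa1b (1.94 and 1.18) lie below the line, and the lower genes lie between -0.57 and -0.30 in High and between -0.18 and 0.23 in Low.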

How the data were processed

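RNA was sequenced from 12 libraries; the 6 CD25 High ones are compared here. Per the labels' protocols, RNA was amplified from 10 ng with a SMARTer Ultra Low kit, which does not mark strand, so reads of overlapping or antisense partners are pooled. The authors deposited raw read counts for each Ensembl gene; the submitters' processing notes name CASAVA 1.8.2, STAR 2.4 and featureCounts 1.4.6 on GRCm38, with settings not given in the sources used here. Of 21839 genes, 21628 were matched to symbols and positions of GENCODE vM21 on that build.

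Testing used edgeR 4.0.16 under R 4.3.3, with filterByExpr at its defaults (11766 genes, 99.96% of counts) and TMM scaling. Robust quasi-likelihood fits over the 12 libraries had 4 groups and the replicate number as block, leaving 6 residual degrees of freedom. The block treats High and Low libraries of the same genotype and number as independent beyond the number. Yet the sex-linked list had a pair 3 median of 0.983 in High and 0.728 in Low. Such libraries may share a source, and SEs and p-values may then be too small. The CD25 High libraries alone, with the block, gave 464 genes at unadjusted p under 0.05 and called 0. Benjamini-Hochberg adjustment ran over all tested genes at 0.05. Pairing was set by the rule of the comparison, with earlier results known in which same-numbered libraries varied together. Over the 12 libraries, same-numbered ones of different groups correlated at 0.34 to 0.83 and others at -0.688 to 0.197. DESeq2 1.42.0 and limma 3.58.1 were alternatives. Scripts were tested on simulated data. With 3 libraries a group and no pairing, the smallest two-sided exact permutation p is 0.1. Within 3 pairs, as compared here, it is larger. Named genes were, per direction, the 10 of smallest p averaging 10 CPM or more in the higher group and agreeing in sign over 3 of 3 pairs, since none passed; up to 4 members of each list of smallest p; the heat shock, GTPase, clock and Sin3 members; Atg5, Il2ra, Foxp3, Ctla4, Icos and Itgax; and 5 per direction for the difference of effects. Results for a few genes that the rule names are not reported here. Members and lists were chosen with earlier results of these data known.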

Additional observations from a re-analysis of the deposited data

How the results depend on the processing

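The count of 0 genes for TG minus WT in CD25 High held in edgeR under other scaling, other filters, thinning to 6767828 counts, the 6 CD25 High libraries alone and each left-out library or replicate number. DESeq2 called 7 (Cd22, Il9r, Hsp90ab1, Sap130, Gm4951, Hsph1 and Iigp1) and limma voom 2; Il9r and Gm4951 are named after their values were seen. In CD25 Low, DESeq2 called 2, and leaving out replicates gave 0 to 6, the 6 being without replicate 2. Without the replicate block edgeR also called 0 in CD25 High, CD25 Low and the difference between them, but genes at unadjusted p under 0.05 numbered 99 against 418, 48 against 382 and 27 against 118. In the CD25 High lists, those counts without the block were 2 against 11 for heat shock, 1 against 6 for the GTPases, 0 against 5 for the unfolded protein response, 0 against 5 for the cell cycle and 0 against 11 for B cell genes. With the CD25 High libraries alone and no block there were 85 such genes. DESeq2 and limma voom were run with the block only. Over the alternatives, including left-out replicates, the differences of Il2ra (-0.0634 to 0.0866), Foxp3 (-0.0919 to 0.0773), Ctla4 (-0.126 to 0.0546), Icos (-0.0562 to 0.254), Hsf1 (-0.275 to 0.101) and Dnaja1 (-0.154 to 0.737) crossed 0. TG High replicate 2 had 6767828 counts, and pair 2 carried more of the heat shock and ribosomal differences. The ribosomal median was 0.156 without TG High replicate 2 and 0.0321 without WT High replicate 2. The heat shock median was 0.0836 and 0.128 in the same order. Reads carry no molecular identifiers, so depth alone understates their error.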
